A study of Rattus norvegicus with 144 samples.

Results

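In 12 saline-treated F344 rats, 164 of 38803 annotated transcripts had a mean FPKM of at least 5 in the dorsal striatum (STR) and at least 4 times the mean of both the prefrontal cortex (PFC) and the dorsal hippocampus (HIP). FPKM is the number of sequenced fragments scaled to the length of a transcript and to the number of mapped fragments in the library, so that transcripts of different lengths can be set side by side. These 164 transcripts of 159 genes are described here, with their levels in all 12 groups of the study. The members were chosen by the mean FPKM of the saline-treated F344 rats in the 3 regions, so the enrichment in those rats is a description and has no test.

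RNA-seq was done on 144 libraries, 12 in each of 12 groups. HIV-1 transgenic (HIV-1Tg) and F344 background rats, all adult males, received nicotine or saline. The nicotine solution held 0.25 mg/ml, the injected volume was 1 ml/kg, and rats had 2 subcutaneous injections per day for 17 days. The 4 groups are called F344_Sal, F344_Nic, HIV_Sal, and HIV_Nic, and each was measured in the PFC, HIP, and STR. The transgene of HIV-1Tg rats is a provirus that lacks gag and pol, and its expression starts from the viral promoter, not from one restricted to the brain. Tissue was punched from brain slices, so that every library holds a mixture of neurons, glia, and vessel cells. A lower level can therefore come from fewer cells of a type or from less RNA per cell, and these cannot be told apart.

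The dorsal striatum is the main input nucleus of the basal ganglia. Most of its neurons are inhibitory medium spiny neurons that receive cortical glutamate and midbrain dopamine, and a dense cholinergic innervation comes from its own interneurons. The cortex and hippocampus are instead built mainly of excitatory pyramidal neurons, so that many neuronal signaling genes differ sharply in level between these tissues. The tables list transcripts by Ensembl identifier and do not pair them with gene names. Lists of striatal, glial, and other marker genes were therefore not analysed here, and identifiers are printed only for a few transcripts and their genes, which were chosen after their values were seen.

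Before the members are described, 4 libraries have to be set apart, because their content went against their region labels. Over 10703 transcripts that are not members, 140 of the 144 libraries correlated best with libraries of their own region. The library labelled F344_Sal rat 10 in STR had a median correlation of 0.633 with HIP and 0.574 with STR libraries, whereas the library labelled F344_Sal rat 10 in HIP had 0.621 with STR and 0.585 with HIP. The library labelled HIV_Sal rat 6 in STR had 0.645 with HIP and 0.582 with STR, and the one labelled HIV_Sal rat 6 in HIP had 0.627 with STR and 0.595 with HIP. The labels were kept, and the main counts and values that include these libraries are given with and without them. A further 3 libraries, HIV_Nic rats 10 and 11 in PFC and HIV_Nic rat 4 in HIP, were closest to their own region but had low median correlations with it, at 0.50, 0.576, and 0.586. Relative depth, the ratio of base coverage to FPKM, ranged from 1.64 to 3.52 in STR, 2.08 to 3.56 in PFC, and 1.64 to 2.49 in HIP. Read numbers per library were not analysed here.

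The members fell into 2 kinds by length, with none between 135 and 357 bases. There were 70 short members of 66 to 135 bases, with a median of 84.5 bases. The other 94 were 357 bases or longer, with a median of 2391 bases, and came from 89 genes. Short transcripts made up 42.7% of the members but 2.96% of the 7208 transcripts with at least 5 FPKM in STR of F344_Sal rats. The limit of 200 bases used to divide them was chosen after the lengths were seen.

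**Figure D1:**
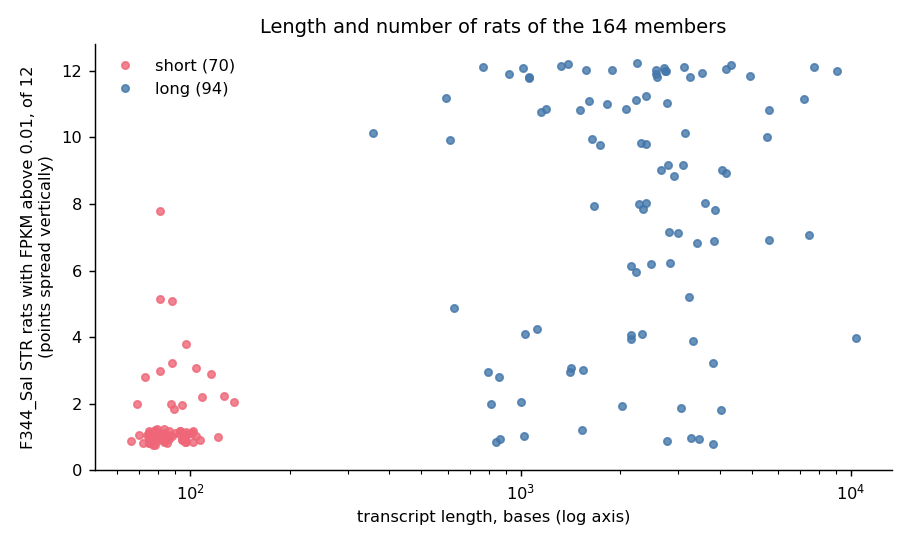
Length of each of the 164 members (log axis, bases) against the number of the 12 F344_Sal STR rats in which its FPKM was above 0.01. Most of the 70 short members sit at 1 rat, whereas 24 of the 94 long members sit at 12 rats.

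Most short members owed their place to single rats. Of the 70, 54 had an FPKM above 0.01 in only 1 of the 12 F344_Sal STR rats, and 55 were at 0 in every F344_Sal rat of PFC and HIP. In 62 of them, more than 50% of the summed FPKM came from 1 rat, and 41 had missing values. The single values ranged from 11.6 to 1682 FPKM with a median of 164 FPKM. They were spread over 11 rats, but rat 5 held 15 and rat 4 held 9 of the 54.

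Several short members carried exactly the same value in the same rat. In rat 5, 4 members of 75 bases each had 180.94 FPKM and another 4 of 75 bases each had 144.75 FPKM. In all, 22 of the 54 members seen in 1 rat shared their value, rounded to 2 decimals, with another member of the same length in the same rat. Reads of near-identical short genes can be divided equally among copies, and the identity of these genes is not known here.

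The short member seen in the most rats was ENSRNOT00000054337, with 81 bases. In STR of F344_Sal rats it ranged from 0 to 835.8 FPKM with a median of 578.2 FPKM, and 8 of 11 rats with a value were above 0.01 FPKM. In STR of the other groups its median was 0 FPKM, with 2 of 10 F344_Nic, 4 of 12 HIV_Sal, and 3 of 11 HIV_Nic rats above 0.01 FPKM. In the PFC of F344_Nic rats it reached 576.3 FPKM and in the HIP of the same group 530.5 FPKM. High and low values of this transcript thus occurred in all 3 regions, and the groups overlapped.

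The 3 groups of rats that the rule did not use showed how far the pattern returned. When the same limits were applied to the means of F344_Nic rats, 56 of 94 long members (59.6%) and 2 of 70 short members (2.86%) met them. In HIV_Sal rats these numbers were 51 long and 9 short members, and in HIV_Nic rats 46 long and 5 short members. Without the 4 libraries, 58 long and 7 short members met the limits in HIV_Sal rats, against 0.544% of all transcripts. Among all 38803 transcripts, 0.451% met the limits in F344_Nic rats, whereas 0.446% did so in HIV_Sal rats with all libraries and 0.469% in HIV_Nic rats. All 4 groups agreed on 38 members, each of them long, and 83 members met the limits in F344_Sal rats only, of which 54 were short. Every transcript that met the limits in F344_Sal rats is a member, so these are also the counts among all 38803 transcripts. How many transcripts met the limits in 1 of the other groups only was not analysed, so that the 83 have no value to be set against. In STR, 57 of the 70 short members were above 0.01 FPKM in no F344_Nic rat, 42 in no HIV_Sal rat, and 48 in no HIV_Nic rat.

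The long members separated STR from the other regions in every library but the 4 set apart. The mean of log2(FPKM + 0.1) over the 94 transcripts ranged from 1.14 to 2.69 in the other 46 STR libraries, from -1.61 to -0.31 in the 48 PFC libraries, and from -1.51 to -0.57 in the other 46 HIP libraries. These ranges include the F344_Sal libraries that chose the members, whose separation is a description. In the 3 groups outside the rule, without the libraries set apart, STR stood at 1.14 to 2.30, PFC at -1.61 to -0.31, and HIP at -1.48 to -0.57. The library labelled F344_Sal rat 10 stood at -1.22 in STR and 1.14 in HIP, and the library labelled HIV_Sal rat 6 at -1.41 in STR and 1.83 in HIP. The STR and HIP libraries with these 2 labels were thus on the side of the other region.

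**Figure D2:**
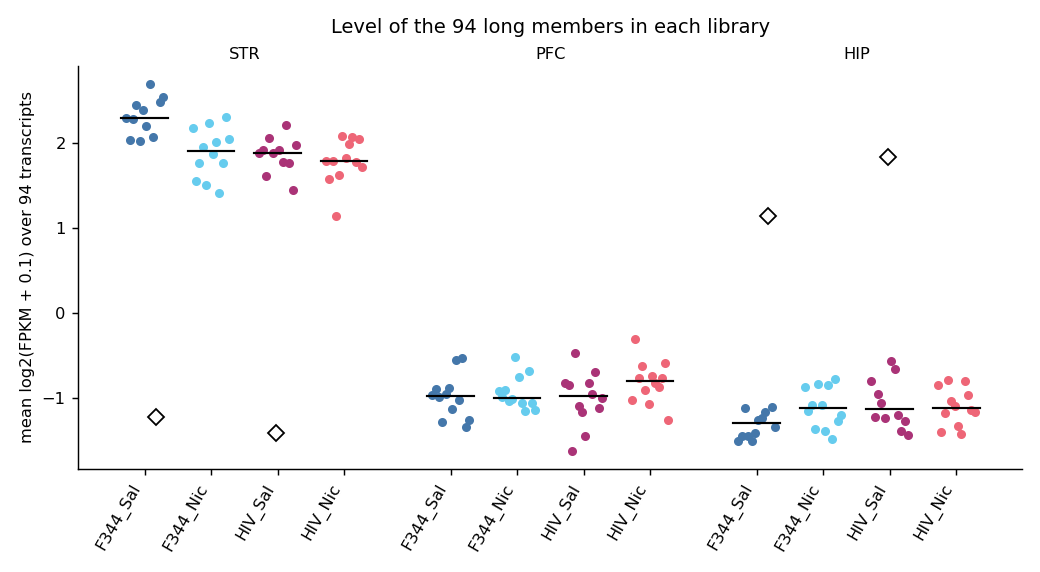
Mean log2(FPKM + 0.1) over the 94 long members in each of the 144 libraries, by region and group; lines are medians of 12 libraries. Open diamonds are the 4 libraries that went against their region labels, at -1.22 and -1.41 in STR and at 1.14 and 1.83 in HIP.

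Without the 4 libraries, this mean in STR was 2.31 ± 0.22 (SD, n = 11) for F344_Sal rats, whereas F344_Nic rats had 1.88 ± 0.29 (SD, n = 12). It was 1.86 ± 0.21 (SD, n = 11) in those of HIV_Sal rats and 1.78 ± 0.27 (SD, n = 12) in those of HIV_Nic rats. The higher value of F344_Sal rats cannot be read as a difference between groups, since the members were chosen for being high in those rats. The 3 groups that were not used for the choice had ranges that overlapped, from 1.41 to 2.30, from 1.45 to 2.21, and from 1.14 to 2.08. In the PFC, the group medians of the same measure were -0.97, -0.99, -0.97, and -0.79 for F344_Sal, F344_Nic, HIV_Sal, and HIV_Nic rats.

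Differences between regions were tested with limma in the 3 groups that the rule did not use, with Benjamini-Hochberg adjustment over all transcripts. Only transcripts with more than 0.01 FPKM in 6 or more of the 12 rats were tested, in both groups compared. This limit removed all 70 short members and kept 39 to 47 of the 94 long ones, so that members at 0 in the other region were not tested. In F344_Nic rats, 34 of 42 members tested were higher in STR than in PFC, against 14.5% of all transcripts tested. In HIV_Sal rats there were 33 of 41, against 9.93%, and in HIV_Nic rats 34 of 47, against 8.64%. Compared with HIP, 32 of 41 members were higher in F344_Nic rats, 30 of 39 in HIV_Sal rats, and 33 of 42 in HIV_Nic rats, against 9.11%, 6.68%, and 7.1% of all transcripts. The median differences of the members from PFC were 3.03, 2.92, and 3.06 on the log2 scale in the 3 groups, whereas those of all transcripts were 0.12, 0.09, and 0.07. Those from HIP were 3.59, 3.15, and 3.34, against 0.07, 0.04, and -0.01. No member tested was lower in STR at the adjusted threshold. Without the 4 libraries, 35, 34, and 35 members were higher than in PFC in F344_Nic, HIV_Sal, and HIV_Nic rats, against 14.7%, 11%, and 8.88% of all transcripts. Compared with HIP, 33, 31, and 34 were higher, against 9.37%, 8.94%, and 7.36%. All 6 comparisons could be made for 33 members, and 26 of them were higher in STR each time, against 2.23% of all transcripts.

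ENSRNOT00000037752 of gene ENSRNOG00000028404, a transcript of 2244 bases, had the highest level among members present in every F344_Sal STR rat. Its lowest, median, and highest STR values were 176.2, 557.4, and 815.1 FPKM over 11 F344_Sal rats, and 385.5, 486.7, and 1073 FPKM over 12 F344_Nic rats. They were 237.4, 435.4, and 995.1 FPKM over 11 HIV_Sal rats and 150.8, 524.9, and 1320 FPKM over 12 HIV_Nic rats. The 4 groups overlapped widely in STR.

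The excluded libraries labelled F344_Sal rat 10 and HIV_Sal rat 6 had 32.3 and 13.8 FPKM of it in STR and 450.9 and 337.1 FPKM in HIP. All other HIP libraries were at or below 54.6 FPKM, and no PFC library was above 120.9 FPKM, a value that belonged to F344_Sal rat 10. For F344_Nic, HIV_Sal, and HIV_Nic rats, STR exceeded PFC by 4.44 ± 0.37, 3.58 ± 0.37, and 3.93 ± 0.37 (SE) on the log2 scale, with adjusted p = 5.9e-21, 8.6e-15, and 5.1e-17 by limma. From HIP it differed by 4.49 ± 0.37, 3.20 ± 0.37, and 4.00 ± 0.37 in the same order, and by 3.91 ± 0.26 in HIV_Sal rats without the 4 libraries. The difference from PFC in HIV_Sal rats was 3.995 ± 0.25 (SE) without them.

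ENSRNOT00000036034 of gene ENSRNOG00000024544 was moderate in level in STR and close to 0 in the other regions. Its median in STR was 26.6 FPKM in F344_Sal, 26.5 FPKM in F344_Nic, 30.4 FPKM in HIV_Sal, and 22.5 FPKM in HIV_Nic rats, without the 4 libraries. Its medians in PFC were between 0.041 and 0.197 FPKM, and in HIP between 0.105 and 0.526 FPKM. In the libraries labelled F344_Sal rat 10 and HIV_Sal rat 6, the HIP values were 27.7 and 28.2 FPKM and the STR values 0.052 and 0.05 FPKM. The lowest STR value of any other library, 11.1 FPKM, stood above the highest PFC value, 4.23 FPKM, which again came from F344_Sal rat 10. For the 3 groups outside the rule, in the same order of F344_Nic, HIV_Sal, and HIV_Nic, STR was higher than PFC by 6.91 ± 0.66, 6.30 ± 0.66, and 6.01 ± 0.66 (SE) on the log2 scale, with adjusted p = 1.7e-17, 1.1e-14, and 1.1e-13 by limma. In HIV_Sal rats the difference was 6.93 ± 0.47 (SE) without the 4 libraries.

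Other long members kept the same order of regions at other levels. ENSRNOT00000011892, with 1060 bases, had medians of 254.3 FPKM in F344_Sal, 242.4 FPKM in F344_Nic, 216.6 FPKM in HIV_Sal, and 274.9 FPKM in HIV_Nic STR rats, without the 4 libraries. In the PFC its medians were between 10.8 and 16.01 FPKM. One HIV_Nic STR rat was listed at 0 FPKM, whereas the sum over all transcripts of its gene was at least 152.8 FPKM in every rat of that group. ENSRNOT00000035916, with 921 bases, was lower at 8.98, 5.71, 7.81, and 6.27 FPKM in the same order, and its PFC medians were at or below 0.017 FPKM.

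**Figure D3:**
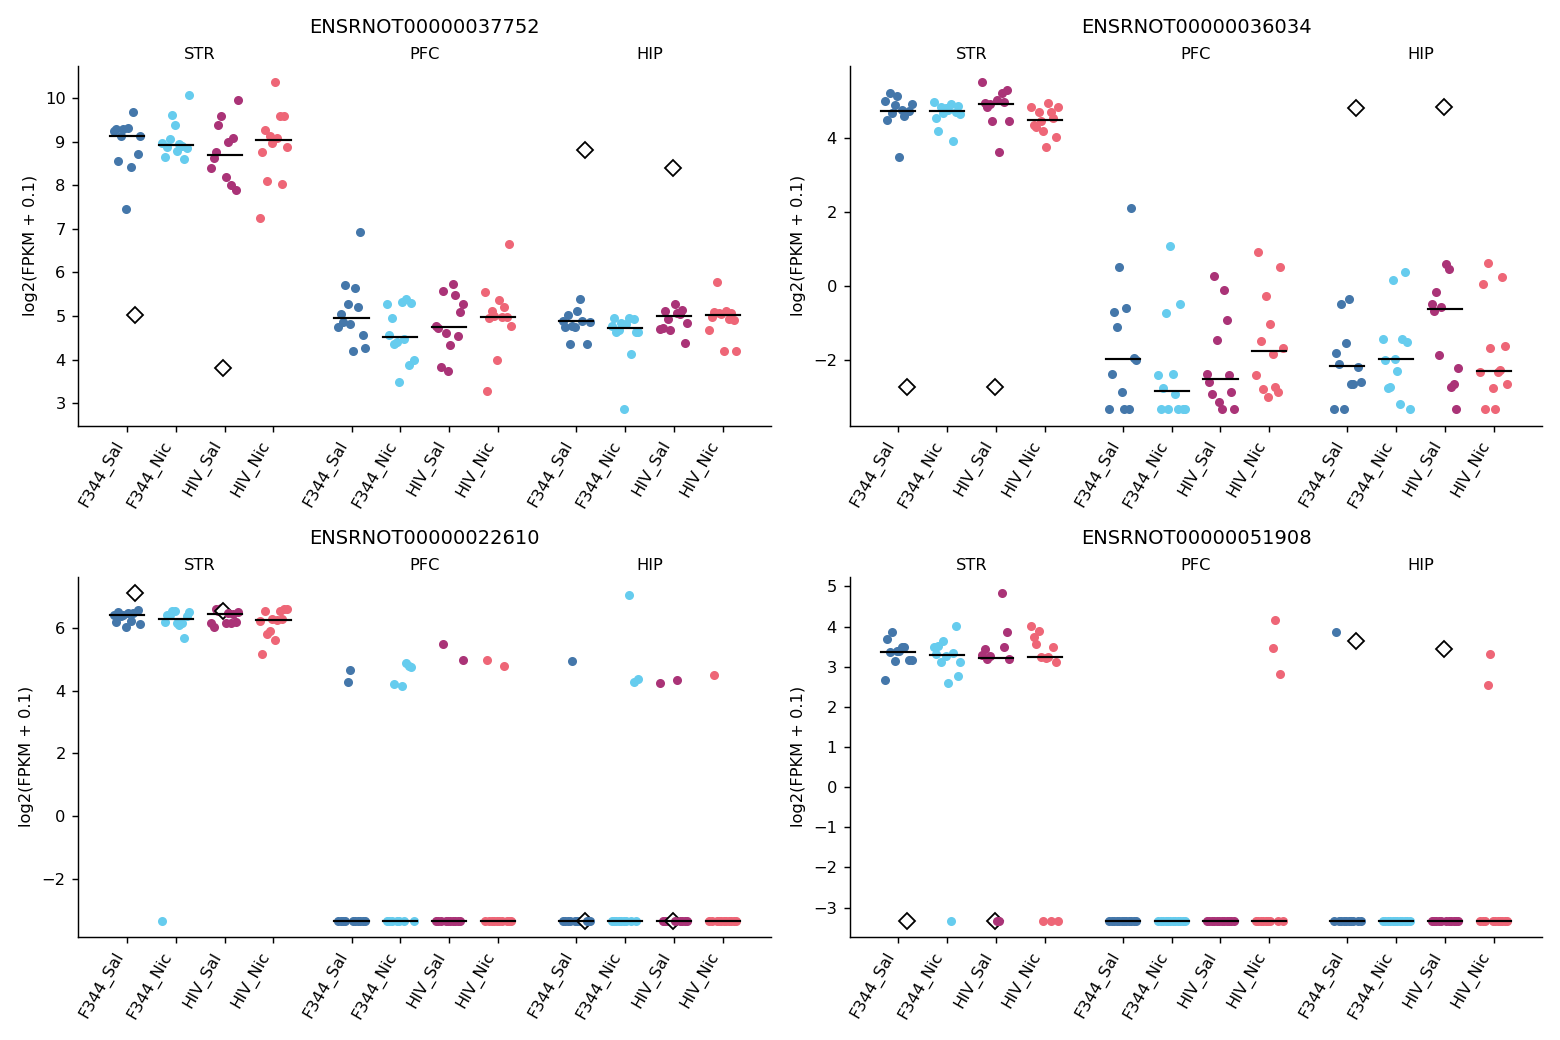
log2(FPKM + 0.1) of 4 long members in each library, by region and group; lines are medians over all libraries with a value, and open diamonds are the 4 libraries that went against their region labels. The diamonds change sides with ENSRNOT00000037752, ENSRNOT00000036034, and ENSRNOT00000051908, but those of ENSRNOT00000022610 stay with the region named on the label.

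Each annotated transcript competes for reads with the other isoforms of its gene, so FPKM was also summed per gene over all assembled transcripts that matched the annotation exactly or shared junctions or exons with it in the same sense. In F344_Sal rats the genes of the long members then fell apart. Of 89 genes, 33 still had a total at least 4 times both other regions, 24 were between 1.5 and 4 times, and 32 were under 1.5 times. Without the 4 libraries, these numbers were 39, 21, and 29. Among all 9516 genes with a total of at least 5 FPKM in STR, 1.44% reached 4 times and 90.2% were under 1.5 times. These counts describe the rats that chose the members, with no test.

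**Figure D4:**
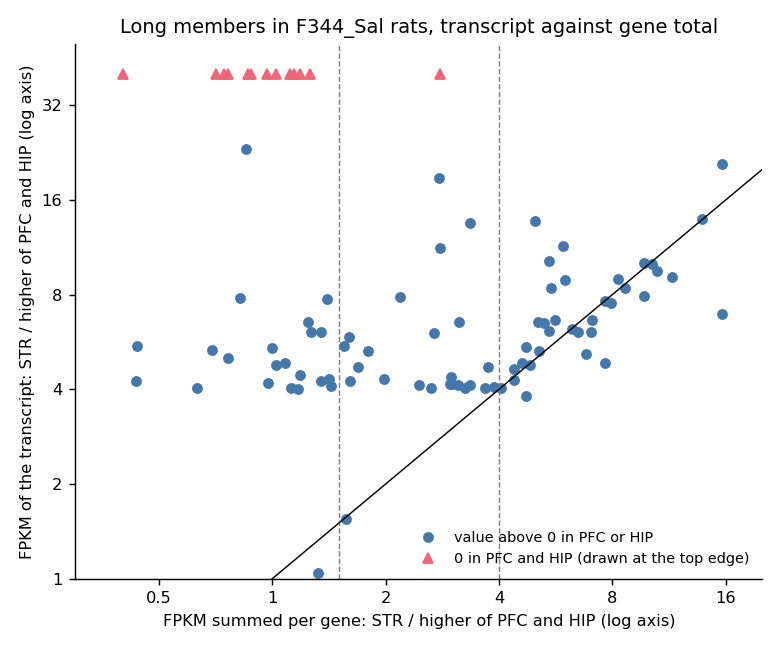
Ratio of mean FPKM in STR to the higher of PFC and HIP in F344_Sal rats, for the sum per gene (horizontal, log axis) and the transcript alone (vertical, log axis), with missing values counted as 0. Dashed lines are at 1.5 and 4; points near the solid line had equal ratios, and the points at the left are transcripts whose gene total was not higher in STR.

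The 33 genes and the 32 genes also differed in other values of the same rats. The 35 members of the first had a median share of 85.7% of their gene's total, and 25 of these 33 genes had 1 annotated transcript among the 38803. The 34 members of the second had a median share of 14.1% of it, and 2 of these 32 genes had 1 annotated transcript. The median gene total in STR was 25.4 FPKM in the first and 58.1 FPKM in the second. In the first, 34 of 35 members were above 0.01 FPKM in at least 6 F344_Sal STR rats, compared with 14 of 34 in the second. A member that holds most of its gene's total largely sets the ratio of that total, so the shares are not independent of the split.

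The same ratios were taken in the rats that were not used to choose the members. Of the 33 genes, 31 had a total at least 4 times both regions in F344_Nic rats, 28 in HIV_Sal rats, and 28 in HIV_Nic rats, against 1.53%, 1.57%, and 1.53% of all genes with at least 5 FPKM in STR. Of the 32 genes, 29, 30, and 30 were again under 1.5 times, a share near that of all such genes, at 89.3%, 90.7%, and 91.2%. For HIV_Sal rats these numbers were 31 and 28 without the 4 libraries, against 1.90% and 89.1% of all such genes. In the limma fit on gene totals, 57 of 82 genes tested were higher in STR than in PFC in F344_Nic rats, against 23.4% of all genes, and 6 were lower, against 14.9%. In HIV_Sal rats 59 of 84 were higher, against 19.6%, and 3 were lower, against 12.7%. In HIV_Nic rats 56 of 83 were higher, against 18.7%, and 5 were lower, against 12.7%. Compared with HIP, 56 of 83, 49 of 84, and 51 of 85 genes were higher in STR, against 19.6%, 15.8%, and 16.2%. Lower than in HIP were 5, 5, and 6 genes, against 13.4%, 11.2%, and 15.4%. Without the 4 libraries, 61 and 52 of 84 genes were higher in STR of HIV_Sal rats than in PFC and HIP, against 20.9% and 18.6% of all genes, and 4 and 7 were lower, against 13.3% in both. Of 80 genes tested in all 6 comparisons, 45 were higher in STR each time, against 6.12% of all genes, and 2 were lower each time, against 4.25%.

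Both genes with a lower total in STR in all 6 comparisons had, as every gene followed here has by construction, a member transcript chosen for a higher level there. For ENSRNOG00000004067, the medians of the gene total in STR were 26.5, 28.0, 28.3, and 33.2 FPKM in F344_Sal, F344_Nic, HIV_Sal, and HIV_Nic rats without the 4 libraries. In the PFC they were 67.0, 70.3, 76.9, and 69.6 FPKM, and in the HIP 72.5, 83.4, 78.3, and 79.6 FPKM. The STR total was different from the PFC total by -1.31 ± 0.13, -1.25 ± 0.13, and -1.02 ± 0.13 (SE) on the log2 scale for F344_Nic, HIV_Sal, and HIV_Nic rats, with adjusted p = 2.0e-16, 5.8e-15, and 5.5e-11 by limma. In HIV_Sal rats it was -1.38 ± 0.09 (SE) without the 4 libraries.

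The member of this gene, ENSRNOT00000051908 with 7193 bases, behaved in the opposite way. It was above 0.01 FPKM in 39 of 48 STR libraries but in 3 of 48 PFC and 5 of 48 HIP libraries. Its STR medians were 10.4 FPKM in F344_Sal, 9.65 FPKM in F344_Nic, 9.46 FPKM in HIV_Sal, and 9.34 FPKM in HIV_Nic rats, without the 4 libraries. The libraries labelled F344_Sal rat 10 and HIV_Sal rat 6 were at 0 in STR and at 12.3 and 10.8 FPKM in HIP. The libraries with these labels were thus on the side of the other region for this transcript. ENSRNOG00000019207 was the other gene, whose member ENSRNOT00000046418 was above 0.01 FPKM in 7 of 12 F344_Sal STR rats while the total in STR differed from that in PFC by -1.88 ± 0.21 (SE) on the log2 scale in F344_Nic rats, with adjusted p = 2.0e-13 by limma.

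ENSRNOT00000022610 of gene ENSRNOG00000016863, with 2575 bases, had another pattern. In F344_Sal STR rats it made up the whole total of its gene. In STR it had 81.2 ± 9.47 FPKM (SD, n = 11) in F344_Sal rats and was above 0.01 FPKM in 47 of 48 libraries. It was above that limit in 11 of 48 PFC and 7 of 48 HIP libraries. The gene total, however, was 90.4 ± 21.8 FPKM (SD, n = 12) in the PFC and 103.8 ± 6.70 FPKM (SD, n = 11) in the HIP of F344_Sal rats. The gene total of STR did not pass the adjusted threshold in any of the 6 comparisons between regions, with the difference from PFC at -0.26 ± 0.35 (SE) on the log2 scale in F344_Nic rats (adjusted p = 0.60, limma). The libraries labelled F344_Sal rat 10 and HIV_Sal rat 6 had 136.9 and 92.1 FPKM of this transcript in STR and 0 FPKM in HIP. For this transcript these libraries were thus on the side of the region named on the label, and the cause was not tested.

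The 4 libraries were also read over the members of each set of genes. Over the 35 members of the first, the mean of log2(FPKM + 0.1) in HIP was 3.80 and 3.97 in the libraries labelled F344_Sal rat 10 and HIV_Sal rat 6, within the range of 3.22 to 4.71 of the other STR libraries. Over the 34 members of the second, it was -1.45 and -0.66 in HIP, above the other HIP libraries at -3.26 to -1.69 and within the range of -1.48 to 0.81 of the other STR libraries. In STR the same 2 labels stood at -1.86 and -2.56, below all other STR libraries.

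The member with the highest mean in F344_Sal STR rats, 701 FPKM, rested on few rats. ENSRNOT00000022303 was not above 0.01 FPKM in 8 of the 12 and reached 2778 FPKM in another. It was above 0.01 FPKM in 2 F344_Nic, 1 HIV_Sal, and 2 HIV_Nic STR rats. It held 14.7% of its gene's total of 4767 FPKM in STR, which compared with 1555 FPKM in PFC and 1716 FPKM in HIP.

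Neither nicotine nor strain changed a member past the adjusted threshold in STR. No member was called by limma with Benjamini-Hochberg adjustment in HIV_Sal against F344_Sal (55 tested), F344_Nic against F344_Sal (61), HIV_Nic against HIV_Sal (55), HIV_Nic against F344_Nic (57), or the strain by nicotine interaction (53). The share of all transcripts called was 0.0399%, 0.00669%, 0.268%, 0.0271%, and 0%. At an unadjusted p under 0.05, 1, 1, 0, 1, and 0 members were found in these comparisons. The same members passed the study's rule as applied here, which joins this limma p with a fold change over 1.2. Among all transcripts, 5.95%, 3.94%, 6.49%, 5.71%, and 4.5% passed it. The study took its p from an ANOVA with Tukey-Kramer tests, so that only the limits are the study's. The first 2 comparisons and the interaction contain the F344_Sal rats that chose the members, so that only the third and the fourth are independent of the choice.

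The median difference of the members tested in STR moved with the 2 STR libraries set apart. It was -0.05 for strain with saline, 0.29 for nicotine in F344, 0.31 for nicotine in HIV-1Tg, and 0.01 for strain with nicotine on the log2 scale. Without these 2 libraries it was -0.02, -0.06, -0.06, and 0.01, while all transcripts had medians between -0.06 and -0.03. The higher median with nicotine in both strains was thus not seen without the 2 saline libraries. With these 2 libraries kept and HIV_Nic rats 1 to 5 left out, which are described with ENSRNOT00000024004, it was 0.56 for nicotine in HIV-1Tg and 0.17 for strain with nicotine, while all transcripts had 0.04 and 0.03. Without the filter on low values, which lets in the short members, the median for nicotine in F344 was -0.84 and that for strain with saline -0.58, both against the rats that chose the members. In the HIP, the medians for nicotine in F344 and in HIV-1Tg were -0.32 and -0.24 with all libraries and 0.01 and 0.00 without them.

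**Figure D5:**
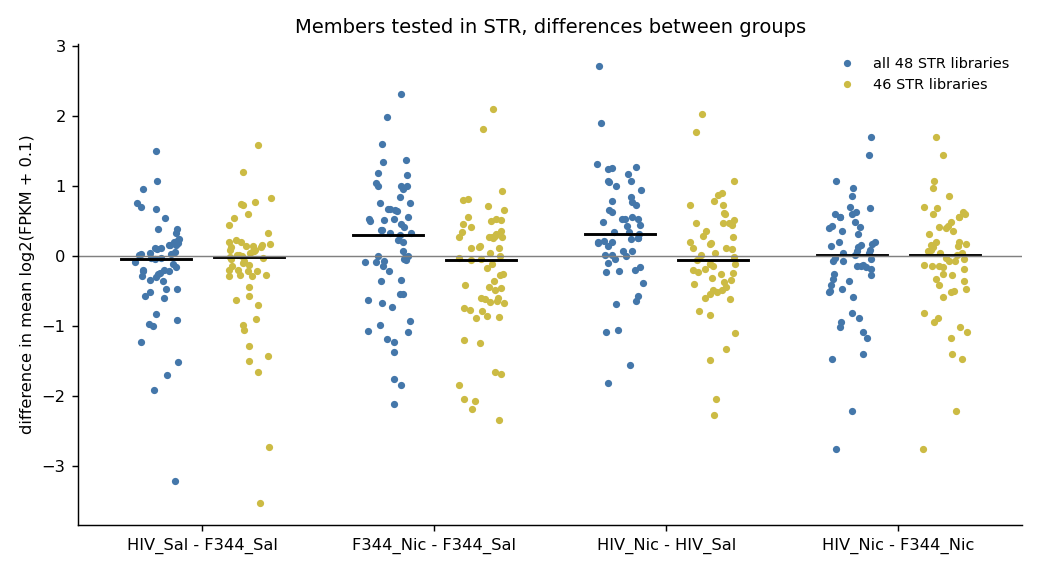
Difference in mean log2(FPKM + 0.1) between groups in STR for each member tested, with all 48 libraries (blue) and with 46 (yellow, without F344_Sal rat 10 and HIV_Sal rat 6); lines are medians. The medians of both nicotine comparisons move from 0.29 and 0.31 to -0.06 and -0.06.

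Without the 2 libraries, 2 of 55, 3 of 61, 4 of 55, 1 of 57, and 0 of 53 members passed the study's rule in the 5 STR comparisons, against 6.43%, 4.32%, 6.54%, 5.98%, and 4.79% of all transcripts, and none was called after adjustment. Among those of nicotine in HIV-1Tg was ENSRNOT00000036034, at 30.0 ± 9.19 FPKM (SD, n = 11) in HIV_Sal and 22.6 ± 5.29 FPKM (SD, n = 12) in HIV_Nic rats. The difference was -0.37 ± 0.17 (SE) on the log2 scale, with adjusted p = 0.63 by limma, and the groups overlapped from 13.4 to 30.4 FPKM. With all libraries it was 0.26 ± 0.64.

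ENSRNOT00000024004 of gene ENSRNOG00000017748, with 2580 bases, passed the study's rule for nicotine in both strains without these libraries, with lower values. In F344 it was compared with the rats that chose it for a high level, so that only the comparison in HIV-1Tg is independent of the choice. Its STR median was 23.9 FPKM in 11 F344_Sal and 17.7 FPKM in 12 F344_Nic rats, and the difference was -0.78 ± 0.33 (SE) on the log2 scale (adjusted p = 0.93, limma). In HIV-1Tg rats the median was 20.6 FPKM with saline and 8.996 FPKM with nicotine, and the difference was -0.84 ± 0.33 (adjusted p = 0.49, limma). With all libraries the differences were -0.54 ± 0.40 and -0.58 ± 0.40. The low HIV_Nic values lay mainly in rats 1 to 5, at 3.87, 3.53, 5.39, 5.36, and 4.60 FPKM. These 5 libraries also correlated more with PFC than with HIP libraries, by 0.015 to 0.032, whereas in every other STR library not set apart the correlation with PFC was lower than that with HIP. Their part in the difference was not tested.

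ENSRNOT00000026387 showed the only rise by the study's rule with nicotine in STR of F344 rats when all libraries were used. It ranged from 0 to 27.4 FPKM over 11 F344_Sal and from 9.16 to 26.4 FPKM over 11 F344_Nic rats with a value, and the difference was 2.32 ± 0.91 (SE) on the log2 scale (adjusted p = 0.9998, limma). The total of its gene, ENSRNOG00000019447, had medians of 22.5 and 22.3 FPKM in the 2 groups, and its difference was 0.81 ± 0.66 (adjusted p = 0.91, limma). Without the 2 STR libraries set apart, the differences were 1.81 ± 0.77 for the transcript and 0.18 ± 0.40 for the gene total.

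Gene totals of the long members gave no call for strain or drug in STR either. Of 86 or 87 genes tested, none passed the adjusted threshold of limma in any of the 5 comparisons, where 0.122%, 0.00584%, 0.332%, 0.0644%, and 0% of all genes did, and 3, 5, 2, 1, and 1 had an unadjusted p under 0.05, where 7.78%, 5.41%, 8.08%, 7.23%, and 4.72% of all genes did. With the 2 STR libraries set apart left out, these counts were 5, 6, 6, 4, and 1, against 9.07%, 6.37%, 8.47%, 8.28%, and 5.18% of all genes, and none was called after adjustment. For the 33 genes with the highest ratios, the mean of log2(total + 0.1) in STR was 4.88 ± 0.30 (SD, n = 11) for F344_Sal rats, whereas F344_Nic rats had 4.91 ± 0.21 (SD, n = 12), without the 4 libraries. It was 4.78 ± 0.26 (SD, n = 11) for HIV_Sal and 4.78 ± 0.22 (SD, n = 12) for HIV_Nic rats, and the ranges of all 4 groups overlapped. The gene of the most abundant steady member, ENSRNOG00000028404, had medians of 606.5 and 807 FPKM in F344_Sal and F344_Nic rats and of 546.4 and 770.4 FPKM in HIV_Sal and HIV_Nic rats. Its differences with nicotine were 0.45 ± 0.24 (SE) in F344 and 0.47 ± 0.24 in HIV-1Tg rats on the log2 scale, with adjusted p = 0.79 and 0.61 by limma, and 0.79 ± 0.40 and 0.78 ± 0.40 with all libraries.

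In the PFC and HIP no member passed the adjusted threshold of limma for strain or drug. The members were chosen for low means in these regions of F344_Sal rats, so that the comparisons with F344_Sal and the interaction contain values used for the choice, and their counts are a description. In the PFC, 39 to 43 members were tested and 1, 1, 2, and 1 passed the study's rule in HIV_Sal against F344_Sal, F344_Nic against F344_Sal, HIV_Nic against HIV_Sal, and HIV_Nic against F344_Nic. Among all transcripts 4.01%, 10.3%, 6.44%, and 12.8% passed it, and 0.0203%, 4.99%, 0%, and 5.29% were called after adjustment. For the interaction in the PFC, 0 of 36 members passed the study's rule, against 11% of all transcripts, and 3.87% of all were called after adjustment. In the HIP, 38 to 41 members were tested and 2, 6, 0, and 0 passed the study's rule, against 4.39%, 5.52%, 4.56%, and 5.06% of all transcripts, and 0.0536%, 0.00668%, 0%, and 0.0267% were called after adjustment. Without the libraries set apart, 4 of 36, 5 of 38, 2 of 38, and 4 of 39 members passed the study's rule in the HIP, against 4.75%, 5.18%, 4.58%, and 5.46% of all transcripts. For the interaction in the HIP, 1 of 37 members passed it, against 6.73%, and 1 of 35 without these libraries, against 7.11%. Leaving out the 3 libraries with low correlations gave 0 calls after adjustment in both regions as well.

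Totals per gene gave the same count of 0 calls by limma in these regions, for 82 to 85 of the 89 genes. In the PFC, 0.0233%, 5.02%, 0%, 5.67%, and 3.84% of all genes were called for the 5 comparisons in the order used for STR, and 6, 0, 10, 3, and 2 of the members' genes had an unadjusted p under 0.05, where 4.51%, 9.98%, 8.81%, 15.1%, and 11.7% of all genes did. In the HIP, 0.0647%, 0.00586%, 0%, 0.088%, and 0% of all genes were called, and 0, 11, 1, 4, and 5 of the members' genes had an unadjusted p under 0.05, where 5.36%, 8.01%, 7.64%, 9.45%, and 9.82% of all genes did. With the libraries set apart left out, these counts in the HIP were 4, 7, 5, 10, and 10, against 5.93%, 7.65%, 7.97%, 10.9%, and 11.2% of all genes, and none was called after adjustment.

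A few transcripts outside the members followed the same pattern over the 144 libraries, including the 4 set apart. Among 10703 transcripts without missing values and with a mean of at least 1 FPKM, the 5 with the closest course had correlations of 0.94, 0.93, 0.92, 0.91, and 0.90 with the mean of the long members. Their mean in STR of F344_Sal rats was 6.50, 2.98, 719.1, 34.5, and 4.70 FPKM, with ratios to the higher of PFC and HIP of 3.48, 5.78, 3.54, 2.06, and 3.98. The transcript with 2.98 FPKM missed the rule by the level, that with 4.70 FPKM by level and ratio, and the others by the ratio. The points share the difference between the 3 regions, and the correlations are given as a description.

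At the limit of the rule, the 3 members just inside had ratios of 4.01, 4.03, and 4.04, and the 3 transcripts just outside had 3.90, 3.97, and 3.99. Another 23 transcripts past the level in STR had no value in PFC or HIP and were not members.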

How the data were processed

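Reads were mapped by the authors with TopHat and Bowtie (1.04 in the submitters' processing notes) to build Rn4, and they deposited the FPKM of each assembled transcript by Cufflinks in 6 tables, 1 per strain and region, with 24 libraries each. These packed cells hold FPKM, coverage, and length. No column was unused (0). Transcripts with an exact match to the annotation in all 3 regions were kept, as the rule asks. The members and gene lists were chosen with earlier results of these data known. Marker lists and named genes could not be applied because the tables pair no identifier with a symbol. The printed identifiers were chosen after their values were seen.

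Tests were run on log2(FPKM + 0.1) by limma 3.58.1 (R 4.3.3) and a trended prior: the 4 groups of a region (48 libraries) for strain and drug, and all 144 libraries for regions. Transcripts needed an FPKM above 0.01 in at least 6 of 12 rats of each group compared. Calls used Benjamini-Hochberg adjusted p under 0.05. What is called the study's rule was an unadjusted limma p under 0.05 with a fold change over 1.2. It takes only these limits from the study, which used a 2-way ANOVA with Tukey-Kramer tests after outliers and values near 0 were removed. Missing values were left out, except in gene totals, where they count as 0. The log scale understates changes near 0. The FPKM values used here come without read counts, and the deposited reads were not used, so no counting error is given. No 2 libraries of a region shared more than 0.0208% of values, and none was counted as a duplicate. Alternatives were other pseudocounts, filters, scaling, weights, outlier removal, missing values as 0, and a replicate block. Leaving out libraries and summing per gene were added after the data were seen. The code of the fit was also run on simulated STR values with known changes, which checks the code and not the results.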

Additional observations from a re-analysis of the deposited data

How the results depend on the processing

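None of the 13 comparisons of strain and drug called a member with the settings of the report, and 134 of 139 alternative values left this at 0. The exceptions were in the PFC. Without a filter on low values and with a mean FPKM of at least 1, 1 member was called for nicotine in F344 and 1 for strain with nicotine. This was ENSRNOT00000020818 in both settings, which was at 0 in all 12 F344_Sal and 12 HIV_Nic PFC rats and above 0.01 FPKM in 7 of 10 F344_Nic rats with a value. The difference was 5.39 on the log2 scale for nicotine in F344 (adjusted p = 9.2e-06 by limma without a filter) and -5.39 for strain with nicotine (adjusted p = 9.4e-06), while the total of its gene differed by -0.25 ± 0.19 (adjusted p = 0.83) for nicotine in F344. The filter of the report removes such transcripts by its construction. The rule chose this member for a low PFC mean in F344_Sal rats, so that only strain with nicotine is independent of the choice. With outliers beyond 1.5 interquartile ranges removed, 1 member was called for nicotine in F344 in the PFC. For the interaction in the PFC, which is not among the 13, the first 2 settings called ENSRNOT00000020818 and 1 further member, and the third called 1 member. With the settings of the report, 4.99%, 5.29%, and 3.87% of all transcripts were called in the PFC for nicotine in F344, strain with nicotine, and the interaction. The shares in the alternative settings are not given here, so these calls cannot be set against them. Nicotine in F344 and the interaction also contain the F344_Sal rats that chose the members.

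In all 3 groups outside the rule, 28 members were higher in STR than in PFC and 28 than in HIP. These counts ranged from 25 to 39 in the alternatives run, and the gene totals higher in STR stayed within 1.5 times of the reported counts. In single groups, 8.64% to 14.5% of all transcripts tested were higher in STR than in PFC, and 6.68% to 9.11% than in HIP. The share of all transcripts called in all 3 groups was not taken for the settings of the report or the alternatives. The number of members was 164 and ranged from 111 with a ratio of 6 to 228 with a ratio of 3. With medians over rats it was 177, of which 66 were among the 164, and without the STR and HIP libraries labelled F344_Sal rat 10 it was 196, of which 154 were.

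Libraries with the same replicate number deviated together by correlations of -0.07 to 0.07 within a region and -0.20 to 0.05 between regions, so that the numbers were not taken to pair them. With the replicate block, 0 members were called for strain or drug, and 27 and 28 were higher in STR than in PFC and HIP in all 3 groups. The shares of all transcripts called with the block are not given here, so these member counts have no value to be set against. The gene totals higher in STR than in PFC with the block were 57, 58, and 56, against 23.3%, 19.5%, and 18.5% of all genes, and than in HIP 56, 49, and 51, against 19.5%, 15.7%, and 16.1%. Low levels in PFC and HIP and missing read counts limit what can be said of members near 0.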

Other observations

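When the rule was mirrored for the hippocampus, 90 transcripts met it. Their mean log2(FPKM + 0.1) was between -0.55 and 1.07 in the other HIP libraries and between -2.47 and -1.49 in the other STR libraries. The libraries labelled F344_Sal rat 10 and HIV_Sal rat 6 stood at -0.46 and -0.29 in STR and at -1.39 and -1.51 in HIP.

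In the PFC, the mean of log2(gene total + 0.1) over the 33 genes with the highest striatal ratios was 2.41 in the library labelled F344_Sal rat 10, whereas the median of the 12 F344_Sal PFC libraries was 1.02. The highest values in the other groups were 1.48 in F344_Nic, 1.35 in HIV_Sal, and 1.90 in HIV_Nic. The latter was rat 11, and rat 10 of the same group had 1.69, which are the 2 PFC libraries with the lowest correlations with their own region (0.576 and 0.50). The label F344_Sal rat 10 thus had a raised striatal level in the PFC and libraries against their region in STR and HIP. The other such label, HIV_Sal rat 6, had 1.07 in the PFC, close to the median of its group. Equal rat numbers were not taken to pair libraries of different regions. Whether the raised PFC level and the libraries against their labels are connected was not tested.

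Without the 4 libraries, the 33 gene totals correlated with each other across 46 STR libraries, after group means were removed, at a median of 0.17 over 528 pairs. The median coefficient of variation over F344_Sal STR rats was 0.419 for these gene totals and 0.513 for their member transcripts.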
